A study of Mus musculus with 12 samples.

Results

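The 10 genes *Dusp4*, *Dusp6*, *Spry2*, *Spry4*, *Spred1*, *Etv4*, *Etv5*, *Phlda1*, *Ccnd1*, and *Fosl1* were chosen by name as members of the MAPK pathway whose mRNA reports on signaling through the cascade or feeds back on it, and all of them were found among the 30705 gene names measured. They code for phosphatases (*Dusp4* and *Dusp6*), inhibitors (*Spry2*, *Spry4*, and *Spred1*), transcription factors (*Etv4* and *Etv5*), and further outputs (*Phlda1*, *Ccnd1*, and *Fosl1*). They were chosen with earlier results of these data known. All 10 had a mean of at least 1 RPKM (reads scaled to transcript length and to the reads mapped in the sample) over the 12 samples and were tested together with the other genes above that level, 11282 in all.

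In the MAPK cascade, growth factor receptors activate Ras, and Ras recruits Raf kinases, which phosphorylate MEK, which in turn phosphorylates ERK. Active ERK drives transcription through ETS and AP-1 factors, and several of the genes it induces code for proteins that dampen the cascade again. In melanoma, mutant Braf signals without Ras, and mRNA of these output and feedback genes is widely used as a readout of pathway activity.

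RNA-seq was performed on a C57BL/6 murine BrafV600E melanoma cell line in 4 groups of 3 samples. These were scramble control cells and cells with a knockout of *ptgs1*, *ptgs2*, or *ptges*, the genes for COX-1, COX-2, and the prostaglandin E2 synthase mPGES-1. COX-1 and COX-2 make prostaglandin H2 from arachidonic acid, and mPGES-1 converts it to prostaglandin E2. All groups share the origin of the line, a p16INK4a-/- mouse that carried Braf+/LSL-V600E and the tamoxifen-dependent Cre Tyr::CreERT2+/o under the tyrosinase promoter, so the scramble cells carry mutant Braf as well. All were cultured in D-MEM with 10% fetal bovine serum, and no treatment or time course was applied. Per the study's methods, CRISPR/Cas9 knockout cells were selected with puromycin and subcloned by limiting dilution. The samples are called subclones in one place and independent samples in another, so p-values measure the spread between these samples, which may be partly technical. The question addressed was how the levels of these 10 genes compare across the 4 lines.

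The targeted genes were examined first. *Ptgs1* was at 16.9, 16.8, and 14.3 RPKM in the *ptgs1*-KO samples, against 138 to 173 RPKM in the 9 samples of the other lines. *Ptgs2* was at 78.5, 84.6, and 76.1 RPKM in the *ptgs2*-KO samples, against 502 to 777 RPKM in the scramble and *ptgs1*-KO samples and 715 to 807 RPKM in the *ptges*-KO samples. *Ptges* was at 41.0, 35.6, and 34.8 RPKM in the *ptges*-KO samples, against 51.5 to 79.8 RPKM in the others. Each target was thus lowest in the line that carries its name, but *Ptges* and *Ptgs2* were also lower in *ptgs1*-KO than in scramble cells. *Ptges* had a mean of 54.5 RPKM there against 77.6 RPKM, a fall of 0.50 on the log2(RPKM + 1) scale (limma adjusted p = 0.0011) that passed in all 23 settings of the processing tried. *Ptgs2* fell by 0.36 (limma adjusted p = 0.0386), which passed in 10 of the 23. Without *ptgs1*-KO replicate 3 the fall was 0.24 (limma adjusted p = 0.0792). *Braf* mRNA was at 10.9 RPKM ± 0.813 (SD, n = 3) in scramble, 12.3 ± 0.508 in *ptgs1*-KO, 11.8 ± 1.23 in *ptgs2*-KO, and 9.46 ± 0.664 in *ptges*-KO cells, and did not pass the test against scramble cells in any knockout. *Cdkn2a*, which codes for p16INK4a and another protein, had a mean of 0.992 RPKM and was below the level tested.

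Markers of the labelled cell type were low in all groups. Of 8 melanocyte genes, *Sox10*, *Tyrp1*, *Dct*, and *Mlana* were listed at 0 in all 12 samples, and the means of *Tyr*, *Pmel*, and *Ednrb* were 0.699, 0.520, and 0.0350 RPKM. *Mitf*, the most abundant of them, had a mean of 2.30 RPKM and no difference that passed the test. Of the fibroblast markers, *Col1a1* and *Col1a2* had means of 0.427 and 0.156 RPKM, and *Dcn* and *Lum* were listed at 0. *Pdgfra* and *Pdgfrb*, which code for growth factor receptors upstream of Ras and were the most abundant fibroblast markers, were measured at means of 6.91 and 10.4 RPKM. *Pdgfra* fell by 0.93 on the log2(RPKM + 1) scale in *ptgs2*-KO and by 0.52 in *ptges*-KO cells against scramble cells, and *Pdgfrb* fell by 0.75 and 1.00 (limma adjusted p from 6.6e-05 to 0.0399). In *ptgs1*-KO cells they were at 0.33 (adjusted p = 0.0614) and 0.54 (adjusted p = 0.147), which did not pass, with the *Pdgfra* samples at 9.86 to 11.1 RPKM against 7.82 to 8.37 RPKM in scramble, and those of *Pdgfrb* overlapping. Markers of leukocytes, endothelium, and epithelium had means of at most 0.0717 RPKM. The part of these receptors in the results was not tested.

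One library stood apart. In *ptgs1*-KO replicate 3 the gene name AK155692 was at 74435 RPKM and held 8.24% of the summed values, against 0.283% to 2.79% in the other samples. Its factor in median ratio scaling was 0.938, the lowest of the 12, with 0.964 to 1.06 in the others. Without it, the numbers of the 10 genes passing the test were 3 for *ptgs1*-KO against scramble, 6 for *ptgs2*-KO against *ptgs1*-KO, and 7 for *ptges*-KO against *ptgs1*-KO cells, beside 3, 7, and 7 with it. Of all genes, 1009, 2528, and 3294 passed without it, beside 1045, 2665, and 3409. The directions of these calls moved further, to 652 higher and 357 lower in *ptgs1*-KO against scramble cells (525 and 520 with it), 1017 and 1511 in *ptgs2*-KO against *ptgs1*-KO cells (1360 and 1305), and 1161 and 2133 in *ptges*-KO against *ptgs1*-KO cells (1494 and 1915). The one of the 10 genes lost was *Fosl1* in *ptgs2*-KO against *ptgs1*-KO cells (limma adjusted p = 0.12 without it).

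Promoter sequence is shown for *Dusp6* and *Spred1*, the genes with the smallest adjusted p in limma's F test over the 4 lines (0.000158 and 0.00091) among the 4 with a RefSeq entry in the table used (*Dusp6*, *Spred1*, *Spry2*, and *Etv5*). Each run is the 250 bases upstream of the start on GRCm38.p6, 5′ to 3′ on the plus strand, and capitals mark GGAA and its reverse complement TTCC, the 4-base core that ETS factors such as Etv4 and Etv5 recognize.
Dusp6 chr10:99262981-99263230: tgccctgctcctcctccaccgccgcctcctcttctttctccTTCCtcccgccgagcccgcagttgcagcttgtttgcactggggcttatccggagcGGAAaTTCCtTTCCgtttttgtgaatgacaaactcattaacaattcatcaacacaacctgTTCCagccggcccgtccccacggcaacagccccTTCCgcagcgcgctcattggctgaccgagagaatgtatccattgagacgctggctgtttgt
Spred1 chr2:117120821-117121070: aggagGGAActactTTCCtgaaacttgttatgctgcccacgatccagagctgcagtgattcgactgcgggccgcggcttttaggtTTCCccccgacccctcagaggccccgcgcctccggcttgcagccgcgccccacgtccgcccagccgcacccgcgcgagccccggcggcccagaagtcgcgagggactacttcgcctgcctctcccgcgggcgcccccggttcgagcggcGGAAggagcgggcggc

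The core was found 6 times upstream of *Dusp6*, 4 times upstream of *Spred1*, 3 times upstream of *Spry2*, and 0 and 4 times in the 2 windows of *Etv5*, on both strands counted together. It was present in 93.4% of 32851 such windows, with a median of 3 matches, and 8.69% of windows held at least 6 and 33.4% at least 4. This search was added after 3 longer motifs were searched on both strands in the 300 bases from 250 upstream to 50 downstream. These were TGACGTCA (the cAMP response element), TGANTCA (AP-1), and CCGGAAGT (an ETS site, which contains GGAA), and none of the 5 windows of the 4 genes held them. They were present in 1.79%, 7.81%, and 3.89% of all such promoters, and in 3.27%, 4.75%, and 8.71% of the 9984 promoters of genes tested. *Dusp6* lies on chromosome 10 from 99263231 to 99267489, *Spred1* on chromosome 2 from 117121071 to 117182279, *Spry2* on chromosome 14 from 105891947 to 105896819, and *Etv5* on chromosome 16 from 22381313 to 22439570.

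Across the 10 genes the highest mean was most often that of *ptgs1*-KO cells and the lowest that of *ptges*-KO cells, as over all genes tested. *Ptgs1*-KO cells had the highest mean for 7 of the 10 (29.6% of all genes tested), namely *Dusp4*, *Dusp6*, *Spry2*, *Spry4*, *Spred1*, *Etv4*, and *Etv5*, which are all the feedback and ETS genes on the list. *Ptges*-KO cells had the lowest mean for 5 (35.1% of all genes tested) and the highest for *Phlda1* and *Fosl1* (24.8% of all genes tested). Differences over the 4 groups passed limma's moderated F test for 9 of the 10 genes, where 38.6% of all genes tested passed, a description since the list was not chosen independently of these data. The exception was *Ccnd1* (adjusted p = 0.226). Per length, *Ccnd1* was the most abundant at 853 to 1058 RPKM over the 12 samples and *Etv4* the least at 20.7 to 38.2 RPKM.

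**Figure D1:**
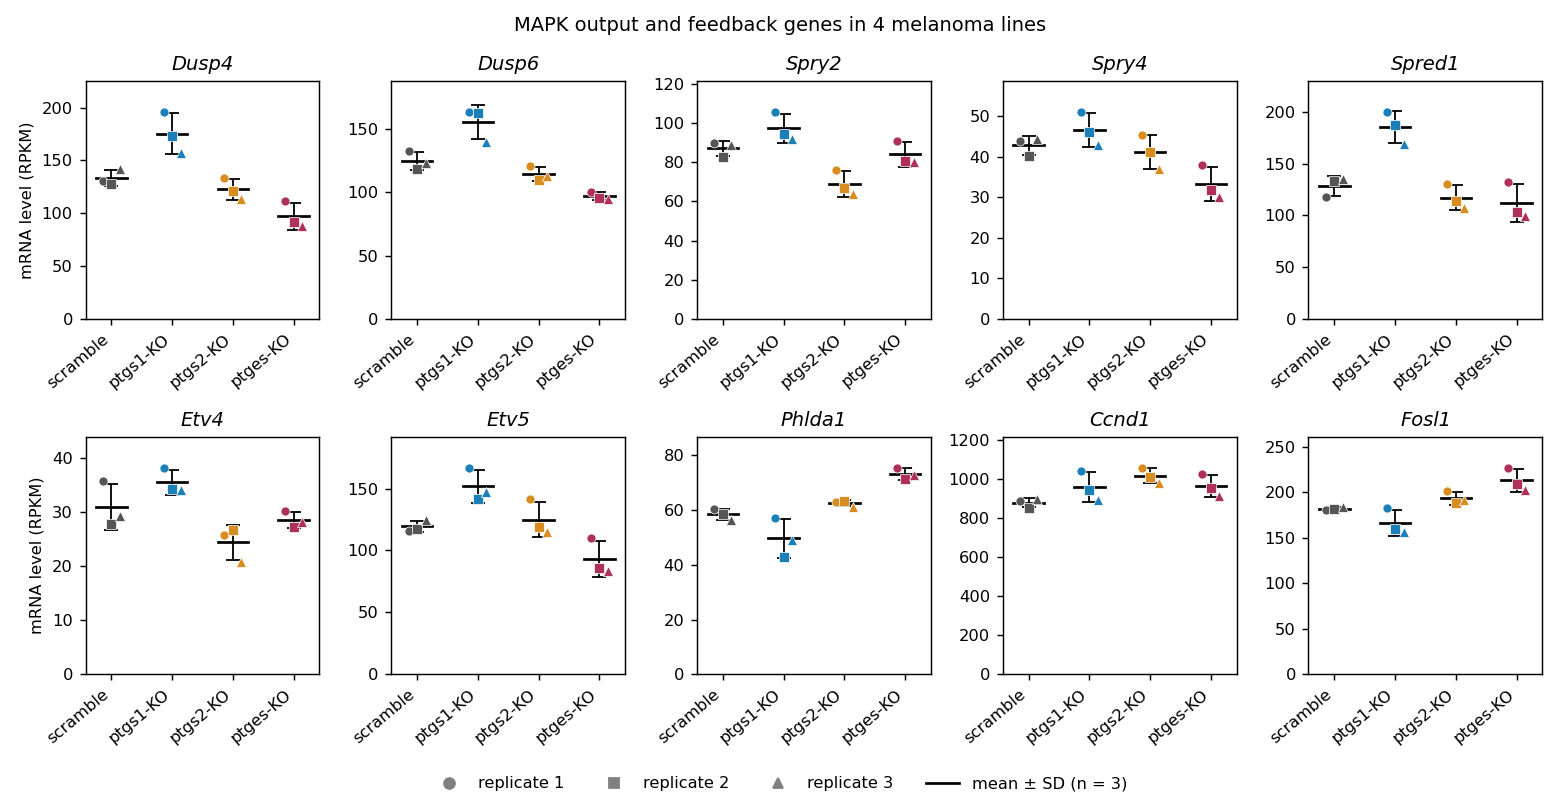
mRNA level in RPKM of each of the 10 genes in the 12 samples, by line, with replicate numbers as symbols and bars for mean ± SD (n = 3). The *ptgs1*-KO samples of *Dusp4*, *Dusp6*, *Spry2*, and *Spred1* sit above all others. The *ptges*-KO samples of *Phlda1*, from 71.2 to 75.5 RPKM, sit above all others, as do those of *Fosl1*.

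Against scramble cells, *ptgs1*-KO cells had higher mRNA levels of 3 of the 10 genes (*Dusp4*, *Dusp6*, and *Spred1*; 4.65% of all genes tested were higher) and lower levels of none (4.61% were lower). The 10 genes had a median log2 difference of 0.18, beside 0.01 for all genes tested. *Ptgs2*-KO cells had lower levels of 1 gene, *Spry2* (5.17% of all genes), and higher levels of none (5.97%), with a median of -0.09 beside 0.01. *Ptges*-KO cells had lower levels of 4 genes (*Dusp4*, *Dusp6*, *Spry4*, and *Etv5*; 14.4% of all genes) and higher levels of *Phlda1* and *Fosl1* (11.9% of all genes), with a median of -0.16 beside -0.03. The 3 comparisons share the scramble samples. All fold changes here are on the log2(RPKM + 1) scale and all adjusted p-values are from limma with Benjamini-Hochberg adjustment over the genes tested.

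**Figure D2:**
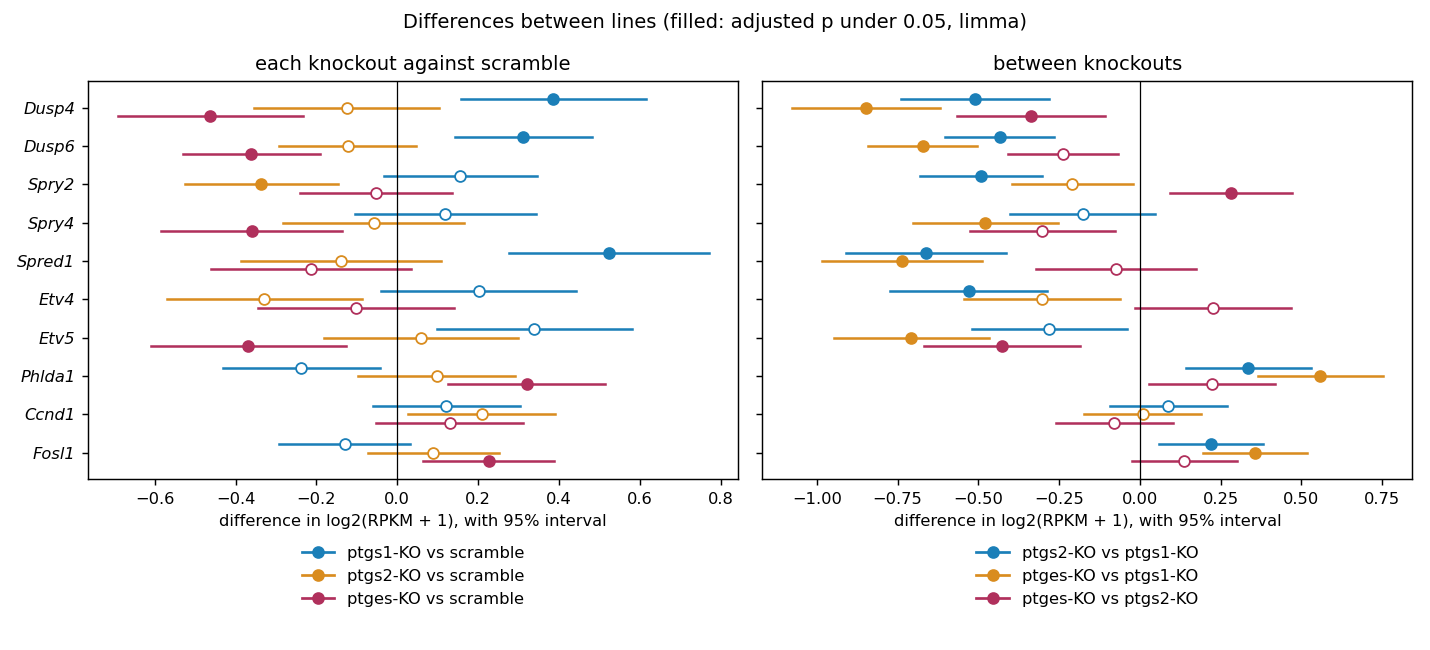
Difference in log2(RPKM + 1) with its 95% interval for each gene, each knockout against scramble cells (left) and between knockouts (right); filled points passed limma's test at an adjusted p under 0.05. In the left panel *Dusp4* lies at 0.39 in *ptgs1*-KO and -0.46 in *ptges*-KO cells.

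The dual-specificity phosphatases remove phosphate from MAP kinases, Dusp4 in the nucleus and Dusp6 mainly from ERK in the cytoplasm. *Dusp6* was at 132, 119, and 123 RPKM in scramble, 163, 163, and 140 RPKM in *ptgs1*-KO, 121, 110, and 113 RPKM in *ptgs2*-KO, and 100.5, 95.7, and 94.4 RPKM in *ptges*-KO samples. All *ptgs1*-KO samples were above, and all *ptges*-KO samples below, every sample of the other lines. *Dusp6* rose by 0.31 on the log2 scale (SE 0.08, adjusted p = 0.0241) in *ptgs1*-KO and fell by 0.36 (SE 0.08, adjusted p = 0.00476) in *ptges*-KO cells against scramble cells, and was at -0.12 (adjusted p = 0.34) in *ptgs2*-KO cells, whose samples overlapped those of scramble. The rise in *ptgs1*-KO cells no longer passed without *ptgs1*-KO replicate 1 or 2 or scramble replicate 2 or 3 (adjusted p from 0.0789 to 0.101), nor with only the 2 lines compared in the model, without or with the replicate number as a block (0.0623 and 0.0731), and passed in 17 of 23 settings. The fall in *ptges*-KO cells passed in all 23 (adjusted p up to 0.0368).

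*Dusp4* was at 131, 128, and 142 RPKM in scramble, 196, 173, and 157 RPKM in *ptgs1*-KO, 133, 121, and 113 RPKM in *ptgs2*-KO, and 112, 91.4, and 87.9 RPKM in *ptges*-KO samples. The order of the lines was that of *Dusp6*, without overlap between *ptgs1*-KO and any other line, while scramble and *ptgs2*-KO samples overlapped. *Dusp4* rose by 0.39 (SE 0.11, adjusted p = 0.0375) in *ptgs1*-KO cells, a 1.31-fold difference, and fell by 0.46 (SE 0.11, adjusted p = 0.00653) in *ptges*-KO cells, to 72.7% of the scramble mean in RPKM. The rise no longer passed without *ptgs1*-KO replicate 1 or 2, any 1 of the 3 scramble samples, *ptgs2*-KO replicate 2, or *ptges*-KO replicate 2 (adjusted p from 0.0512 to 0.140), nor without a filter on low values or without trend (0.0621 and 0.0529), and passed in 14 of 23 settings. The fall passed in all 23 settings (adjusted p up to 0.0364). In bulk samples such as these, fewer cells with a gene's mRNA and less of it per cell cannot be told apart.

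Sprouty and Spred proteins act higher in the cascade, Sprouty proteins between receptors and Raf, and Spred1 by bringing neurofibromin, which turns off Ras, to the membrane. *Spred1* was at 117, 133, and 135 RPKM in scramble, 199.8, 187, and 169 RPKM in *ptgs1*-KO, 130, 114, and 107 RPKM in *ptgs2*-KO, and 133, 103, and 99.4 RPKM in *ptges*-KO samples. Only the *ptgs1*-KO samples stood clear of the rest, and the other lines overlapped one another. *Spred1* rose by 0.52 (SE 0.11, adjusted p = 0.0113) in *ptgs1*-KO cells, the largest difference of the 10 genes against scramble cells, and the call was lost without *ptgs1*-KO replicate 1 or scramble replicate 1 (adjusted p from 0.0511 to 0.0586). It was at -0.14 (adjusted p = 0.474) in *ptgs2*-KO and -0.21 (adjusted p = 0.194) in *ptges*-KO cells, and the latter was at -0.34 and passed without *ptges*-KO replicate 1 (adjusted p = 0.0281).

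*Spry2* was at 89.7, 82.6, and 89.1 RPKM in scramble, 106, 94.3, and 91.9 RPKM in *ptgs1*-KO, 76.4, 66.9, and 63.8 RPKM in *ptgs2*-KO, and 91.2, 80.9, and 80.1 RPKM in *ptges*-KO samples. Here *ptgs2*-KO, not *ptges*-KO, was the lowest line, and all of its samples lay below those of the other lines. The *ptgs1*-KO samples lay above all others, though narrowly, with the lowest at 91.9 RPKM against 91.2 RPKM in *ptges*-KO replicate 1. *Spry2* fell by 0.34 (SE 0.09, adjusted p = 0.0256) in *ptgs2*-KO cells, was at -0.05 (adjusted p = 0.698) in *ptges*-KO cells, and was at 0.16 (adjusted p = 0.312) in *ptgs1*-KO cells. The fall no longer passed without *ptgs2*-KO replicate 2 or 3 or scramble replicate 1 or 3 (adjusted p from 0.0836 to 0.102), nor with only these 2 lines and the block (0.103).

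*Spry4* was at 44.0, 40.1, and 44.3 RPKM in scramble, 51.0, 46.1, and 42.8 RPKM in *ptgs1*-KO, 45.2, 41.1, and 37.0 RPKM in *ptgs2*-KO, and 37.9, 31.9, and 29.9 RPKM in *ptges*-KO samples. The *ptges*-KO samples were below all scramble samples, and the other 3 lines overlapped. *Spry4* fell by 0.36 (SE 0.10, adjusted p = 0.0221) in *ptges*-KO cells, and this no longer passed without *ptges*-KO replicate 2 or 3 or scramble replicate 1 or 3 (adjusted p from 0.0688 to 0.0898) or with only these 2 lines and the block (0.0650). Thus the related genes *Spry2* and *Spry4* passed in different knockouts against scramble cells. The *ptges*-KO level of *Spry2* exceeded that of *ptgs2*-KO cells by 0.28 (SE 0.09, adjusted p = 0.0422, passing in 10 of 23 settings), where *Spry4* was at -0.30 (adjusted p = 0.0652). With the replicate number as a block and all 12 samples, both passed in that pair of lines (adjusted p = 0.0134 and 0.0237).

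*Etv4* and *Etv5* code for ETS transcription factors of the PEA3 family, which ERK both induces and phosphorylates. *Etv5* was at 116, 118, and 125 RPKM in scramble, 167, 141, and 147 RPKM in *ptgs1*-KO, 141, 119, and 115 RPKM in *ptgs2*-KO, and 109.7, 86, and 83.3 RPKM in *ptges*-KO samples. The *ptges*-KO samples were below, and the *ptgs1*-KO samples above, all scramble samples. *Etv5* fell by 0.37 (SE 0.11, adjusted p = 0.0273) in *ptges*-KO cells, which no longer passed without *ptges*-KO replicate 2 or 3 or any 1 scramble sample (adjusted p from 0.0543 to 0.108), without a filter (0.0518), or with only these 2 lines and the block (0.0751). It was at 0.34 (SE 0.11, adjusted p = 0.0801) in *ptgs1*-KO cells, but passed without *ptges*-KO replicate 1 (0.0307) and with median ratio scaling, quantile normalization, the block, or only these 2 lines without or with the block (0.0346 to 0.0463). *Etv4*, at 30.8 RPKM ± 4.21 (SD, n = 3) in scramble, 35.5 ± 2.34 in *ptgs1*-KO, 24.3 ± 3.22 in *ptgs2*-KO, and 28.5 ± 1.53 in *ptges*-KO cells, passed against scramble cells in no knockout. It was at -0.33 (SE 0.11, adjusted p = 0.0765) in *ptgs2*-KO cells, and this passed with median ratio scaling, quantile normalization, the block, or scaling without the 20 highest genes (0.0252 to 0.0464).

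Phlda1 is a pleckstrin homology-like protein induced by growth factors, and Fosl1 (Fra-1) is an AP-1 subunit that ERK stabilizes. *Phlda1* was at 60.5, 58.4, and 56.3 RPKM in scramble, 57.2, 42.8, and 49.0 RPKM in *ptgs1*-KO, 63.0, 63.4, and 61.2 RPKM in *ptgs2*-KO, and 75.5, 71.2, and 72.8 RPKM in *ptges*-KO samples. Its lines ran in the reverse order of *Dusp4* and *Dusp6*, with *ptges*-KO highest and *ptgs1*-KO lowest. *Phlda1* rose by 0.32 (SE 0.09, adjusted p = 0.0191) in *ptges*-KO cells, which no longer passed without scramble replicate 2 or 3 (adjusted p from 0.0517 to 0.0696) or with only these 2 lines and the block (0.0539). It was at -0.24 (adjusted p = 0.125) in *ptgs1*-KO cells, and from -0.34 to -0.14 over the 23 settings (adjusted p up to 0.364). It passed in 1 of these (0.0193), without *ptgs1*-KO replicate 1, whose 57.2 RPKM lay within the scramble range.

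*Fosl1* was at 180.5, 181, and 184 RPKM in scramble, 183, 160, and 157 RPKM in *ptgs1*-KO, 202, 188, and 191 RPKM in *ptgs2*-KO, and 227, 209, and 203 RPKM in *ptges*-KO samples. The *ptges*-KO samples were all above those of the other lines, and the difference was small, with a rise of 0.23 (SE 0.07, adjusted p = 0.0404), or 1.17-fold. It no longer passed without *ptges*-KO replicate 1 or 2, *ptgs1*-KO replicate 2, *ptgs2*-KO replicate 2 or 3, or any 1 scramble sample (adjusted p from 0.0510 to 0.119), nor without trend, with only these 2 lines and the block, or without the 20 highest genes in the scaling (0.0595 to 0.135), and passed in 12 of 23 settings. *Ccnd1*, the gene for cyclin D1, which activates the kinases that start the cell cycle, was at 879.5 RPKM ± 23.7 (SD, n = 3) in scramble, 959 ± 76.5 in *ptgs1*-KO, 1017 ± 38.8 in *ptgs2*-KO, and 963 ± 57.7 in *ptges*-KO cells. It passed in no comparison, except in *ptgs2*-KO against scramble cells with median ratio scaling (limma adjusted p = 0.0464), and its differences from scramble cells were 0.12, 0.21, and 0.13 (adjusted p from 0.128 to 0.424). The 95% intervals reached from -0.06 to 0.30 in *ptgs1*-KO, 0.03 to 0.39 in *ptgs2*-KO, and -0.05 to 0.31 in *ptges*-KO cells.

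The largest differences were those between 2 knockout lines. Between *ptges*-KO and *ptgs1*-KO cells, 5 of the 10 genes were lower in *ptges*-KO cells (*Dusp4*, *Dusp6*, *Spry4*, *Spred1*, and *Etv5*; 17.0% of all genes tested) and *Phlda1* and *Fosl1* were higher (13.2%), with a median of -0.39 beside -0.04 for all genes. *Dusp4* was at -0.85 (SE 0.11, adjusted p = 5.79e-05), *Spred1* at -0.74 (SE 0.11, adjusted p = 0.000362), *Etv5* at -0.71 (SE 0.11, adjusted p = 0.000394), *Dusp6* at -0.67 (SE 0.08, adjusted p = 3.1e-05), and *Spry4* at -0.48 (SE 0.10, adjusted p = 0.00382). *Phlda1* was higher by 0.56 (SE 0.09, adjusted p = 0.000463) and *Fosl1* by 0.36 (SE 0.07, adjusted p = 0.00307). All 7 passed in each of the 23 settings. *Etv4* (-0.30, adjusted p = 0.0559) and *Spry2* (-0.21, adjusted p = 0.0880) did not pass, but did so in 8 and 5 of the 23.

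Between *ptgs2*-KO and *ptgs1*-KO cells, *Spred1* (-0.66, adjusted p = 0.000975), *Etv4* (-0.53, adjusted p = 0.00381), *Dusp4* (-0.51, adjusted p = 0.00343), *Spry2* (-0.49, adjusted p = 0.00115), and *Dusp6* (-0.43, adjusted p = 0.00128) were lower in *ptgs2*-KO cells, where 11.6% of all genes tested were lower. These 5 passed in all 23 settings. *Phlda1* (0.34, adjusted p = 0.0157) and *Fosl1* (0.22, adjusted p = 0.0496) were higher, where 12.1% of all genes were higher. *Phlda1* no longer passed without *ptgs1*-KO replicate 2 or *ptgs2*-KO replicate 2 (adjusted p from 0.0530 to 0.0692), nor with only these 2 lines, without or with the block (0.0659 and 0.0539). *Fosl1* passed in 6 of 23 settings. It was lost without any 1 sample other than *ptgs1*-KO replicate 1 or *ptges*-KO replicate 1 (adjusted p from 0.0584 to 0.148). It was also lost with a pseudocount of 0.1, a filter at 10 RPKM, quantile normalization, no trend, only these 2 lines without or with the block, and scaling without the 20 highest genes (0.0512 to 0.143). *Etv5* (-0.28, adjusted p = 0.0872) did not pass, but did so in 6 settings. The median of the 10 genes was -0.36, beside -0.0048 for all genes. Both comparisons share the *ptgs1*-KO samples.

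Between *ptges*-KO and *ptgs2*-KO cells, *Dusp4* (-0.34, SE 0.11, adjusted p = 0.0454) and *Etv5* (-0.43, SE 0.11, adjusted p = 0.0188) were lower in *ptges*-KO cells (9.84% of all genes tested) and *Spry2* was higher (0.28, SE 0.09, adjusted p = 0.0422; 6.76% of all genes). The median of the 10 genes was -0.08, beside -0.03. In this pair of lines the deviations of same-numbered samples from the group means correlated with r of 0.112 to 0.566. Those of different-numbered samples correlated with r of -0.475 to 0.321, and no label says that the numbers pair samples. A limma fit with only these lines and the replicate number as a block was added after seeing the data. In it 4 genes were lower and 2 higher. *Dusp6* (-0.24, adjusted p = 0.00848 with the block and 0.054 without), *Spry4* (-0.30, 0.0069 and 0.0652), and *Phlda1* (0.22, 0.0134 and 0.11) then passed as well. The number of all genes passing rose with it from 1873 to 3827, and was 2011 with the block and all 12 samples, where 5 of the 10 genes passed. Without the block, *Dusp4* was lost without *ptges*-KO replicate 2 or 3, *ptgs1*-KO replicate 2, *ptgs2*-KO replicate 1 or 2, or any 1 scramble sample (adjusted p from 0.0564 to 0.177), and without trend, without a filter, or with only these 2 lines (0.0620 to 0.0835). *Etv5* was lost without *ptges*-KO replicate 2 or 3 or *ptgs2*-KO replicate 1 (0.0839 to 0.0886), or with only these 2 lines (0.0662). *Spry2* was lost without any 1 sample other than *ptgs1*-KO replicate 1 or 3 or *ptgs2*-KO replicate 1 (0.0520 to 0.131), and without trend, without a filter, with only these 2 lines, or without the 20 highest genes in the scaling (0.0570 to 0.0853). *Dusp6* passed without *ptgs1*-KO replicate 3 (0.0218), *Spry4* without *ptges*-KO replicate 1 (0.0178) or *ptgs2*-KO replicate 3 (0.0421), and *Phlda1* without *ptgs1*-KO replicate 1 (0.0446). *Dusp6* and *Spry4* also passed with median ratio scaling, quantile normalization, scaling without the 20 highest genes, or the block in all 12 samples (0.00986 to 0.0344 and 0.0235 to 0.0301), *Phlda1* with the first 2 of these (0.0442 and 0.0466), and *Fosl1* with the first (0.0375).

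Within lines, the sample with the highest value was mostly the same for the 10 genes. Replicate 1 held the highest value of its line for 10 of the 10 genes in *ptgs1*-KO cells, where it did so for 54.9% of all genes tested, for 10 in *ptges*-KO cells (55.2%), and for 8 in *ptgs2*-KO cells (47.6%), but for 4 in scramble cells (33.6%). Replicate 3 held the lowest value for 8 of the 10 genes in each of the 3 knockout lines, where it did so for 67.5% of all genes in *ptgs1*-KO, 50.3% in *ptgs2*-KO, and 44.9% in *ptges*-KO cells. The labels give no batch, and the part of these samples in the differences was not tested beyond leaving each of them out. Without *ptgs1*-KO replicate 1, none of the 10 genes was higher in *ptgs1*-KO than in scramble cells by the limma test, and *Phlda1* was lower. The differences of the 3 genes lost were then 0.47 for *Spred1*, 0.30 for *Dusp4*, and 0.27 for *Dusp6*, beside 0.52, 0.39, and 0.31 with all samples.

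**Figure D3:**
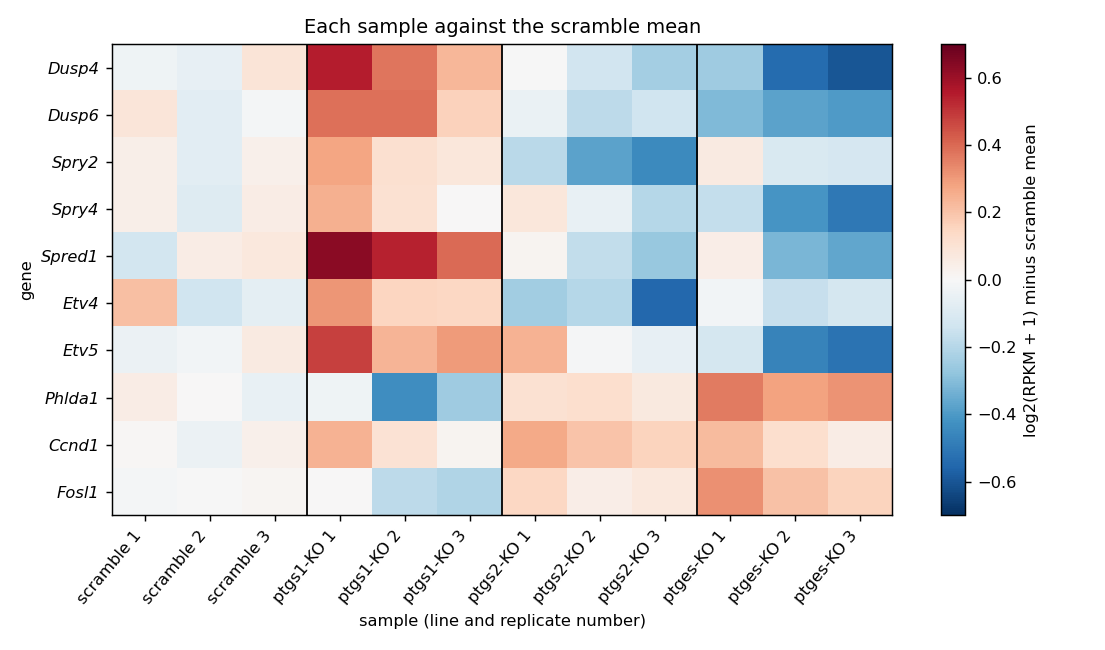
Difference of each sample from the scramble mean in log2(RPKM + 1), by gene (vertical) and sample (horizontal), red for higher and blue for lower. The 7 feedback and ETS genes are red or near white in *ptgs1*-KO samples and *Phlda1* and *Fosl1* are red in *ptges*-KO samples; replicate 1 of the knockout lines is the reddest or least blue of its line for 10 genes in *ptgs1*-KO and *ptges*-KO cells and for 8 in *ptgs2*-KO cells.

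Other genes of the pathway were examined on 5 lists of 52 genes, of which 49 were tested. *Dusp2* and *Epha4* were below the level tested, and *Spry3* was not found by that name. In *ptgs1*-KO cells 4 of the 49 were higher and 5 lower than in scramble cells, in *ptgs2*-KO cells 2 and 5, and in *ptges*-KO cells 6 and 11, against the shares of all genes given above for each comparison. In the same order, median ratio scaling gave 6 and 8, 3 and 6, and 11 and 13 (all genes 757 and 761, 1008 and 918, and 1895 and 1824). Quantile normalization gave 6 and 5, 4 and 6, and 11 and 14 (all genes 805 and 765, 1031 and 760, and 1870 and 1606). The lists' median differences were 0.05, 0.0045, and -0.08. The *ptgs1*-KO count of 9 was 1 to 9 with 1 sample left out, and 1 without scramble replicate 2, 3 without scramble replicate 3, 5 without scramble replicate 1, and 4 without *ptgs1*-KO replicate 1 or 2. The *ptgs2*-KO count of 7 was 4 without *ptgs2*-KO replicate 1 or 3.

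**Figure D4:**
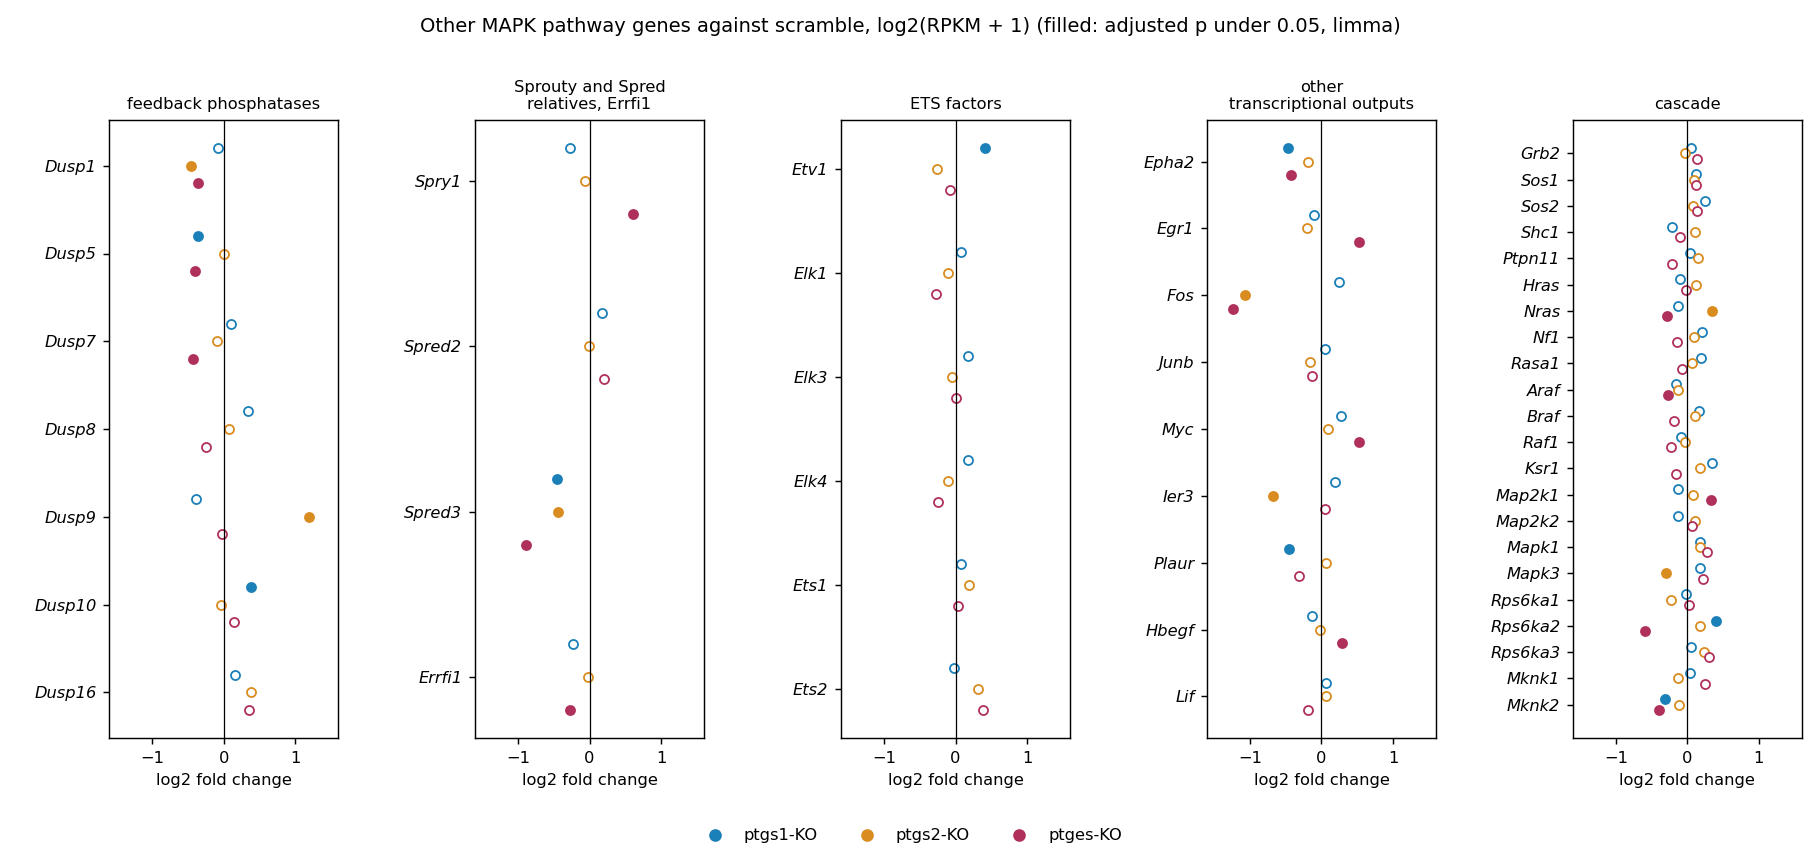
Log2 fold change on the log2(RPKM + 1) scale against scramble cells of other MAPK pathway genes tested, by list and knockout; filled points passed limma's test at an adjusted p under 0.05. *Fos* lies at -1.07 in *ptgs2*-KO and -1.24 in *ptges*-KO cells, and *Dusp9*, at 1.19 in *ptgs2*-KO cells, reached the level tested only through the samples of that line, with means of 0.227 to 0.613 RPKM in the others.

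Among transcriptional outputs, *Fos*, an immediate early gene for an AP-1 subunit, had the largest differences. It was at 12.7, 10.9, and 13.9 RPKM in scramble, 13.5, 16.1, and 15.2 RPKM in *ptgs1*-KO, 5.9, 5.23, and 5.06 RPKM in *ptgs2*-KO, and 4.02, 4.97, and 5.07 RPKM in *ptges*-KO samples. All *ptgs2*-KO and *ptges*-KO samples were below all others, and *Fos* fell by 1.07 (SE 0.12, adjusted p = 6.6e-05) in *ptgs2*-KO and by 1.24 (SE 0.12, adjusted p = 8.46e-06) in *ptges*-KO cells, opposite to its relative *Fosl1* in *ptges*-KO cells. Of the 9 outputs tested, 3 rose and 2 fell in *ptges*-KO cells, where 11.9% of all genes tested were higher and 14.4% lower. *Myc*, a transcription factor gene, rose by 0.53 (adjusted p = 0.00123) there. *Ier3*, an early response gene, fell by 0.68 (adjusted p = 0.000443) in *ptgs2*-KO cells. In *ptgs1*-KO cells *Epha2*, for an ephrin receptor, fell by 0.47 (adjusted p = 0.0121, and 0.0524 without scramble replicate 2), and *Plaur*, for the urokinase receptor, fell by 0.45 (adjusted p = 0.0275, 0.0773 to 0.117 without *ptgs1*-KO replicate 3 or scramble replicate 1 or 2, and 0.0536 without a filter). These levels were not low in *ptgs1*-KO cells alone. *Epha2* had means of 615 RPKM in scramble, 445 RPKM in *ptgs1*-KO, 541 RPKM in *ptgs2*-KO, and 462 RPKM in *ptges*-KO cells. Every knockout sample of *Epha2* was below every scramble sample. *Plaur* had means of 276, 203, 290, and 223 RPKM in the same order, with all *ptges*-KO samples below all scramble samples.

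Of the other 7 feedback phosphatases tested, 3 fell and none rose in *ptges*-KO cells (14.4% and 11.9% of all genes tested), among them *Dusp7* (-0.42, adjusted p = 0.00894), which like *Dusp6* acts on ERK in the cytoplasm, and *Dusp5* (-0.39, adjusted p = 0.00418), which acts on ERK in the nucleus. *Dusp1*, which acts on several MAP kinases, fell by 0.46 (adjusted p = 0.00156, and 0.0529 with only the 2 lines and the block) in *ptgs2*-KO cells. Its mean was 140 RPKM in scramble, 133 RPKM in *ptgs1*-KO, 102 RPKM in *ptgs2*-KO, and 109 RPKM in *ptges*-KO cells. All *ptges*-KO samples of *Dusp1* were also below all scramble samples. *Dusp9* was at 0.77, 0.61, and 0.46 RPKM in scramble and 2.41, 2.75, and 2.88 RPKM in *ptgs2*-KO samples. These lines differed in *Dusp9* by 1.19, and by 1.12 to 1.98 over the 19 settings that gave a value. *Dusp9* had means of 0.227 RPKM in *ptgs1*-KO and 0.580 RPKM in *ptges*-KO cells. Its mean over the 12 samples, 1.02 RPKM, reached the level tested only through the *ptgs2*-KO samples, so its call as 1 of the 2 genes higher in *ptgs2*-KO cells was favored by the filter and its difference is given as a description. In *ptgs1*-KO cells *Dusp5* fell by 0.35 (adjusted p = 0.0174), opposite to *Dusp4* and *Dusp6*, and *Dusp10* rose by 0.38 (adjusted p = 0.0347). The first was lost without *ptgs1*-KO replicate 2 or 3 or scramble replicate 2 or 3 (adjusted p from 0.0513 to 0.0812) and the second without *ptgs1*-KO replicate 1 or 2, *ptges*-KO replicate 2, or any 1 scramble sample (0.0537 to 0.128), without a filter, or with only the 2 lines and the block (0.05002 and 0.0570).

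Of the 4 Sprouty and Spred relatives tested, with *Errfi1* among them, 1 was lower in *ptgs1*-KO cells (4.61% of all genes) and 1 in *ptgs2*-KO cells (5.17%). For *ptges*-KO cells 2 were lower (14.4%) and 1 higher (11.9%). *Spred3* fell in all 3 knockouts, by 0.45 (adjusted p = 0.0113) in *ptgs1*-KO, 0.44 (adjusted p = 0.0119) in *ptgs2*-KO, and 0.89 (adjusted p = 3.42e-05) in *ptges*-KO cells. Its mean was 31.1 RPKM ± 1.57 (SD, n = 3) in scramble and 16.3 ± 0.586 in *ptges*-KO cells, and in *ptgs1*-KO cells its direction was opposite to that of *Spred1*. Its fall in *ptgs1*-KO cells was lost without scramble replicate 3 (adjusted p = 0.0515) and that in *ptgs2*-KO cells without *ptgs2*-KO replicate 3 or scramble replicate 3 (0.0523 to 0.0566) or with only the 2 lines and the block (0.101). *Spry1* rose by 0.61 (adjusted p = 0.0221) in *ptges*-KO cells, where *Spry4* fell, and was lost without *ptges*-KO replicate 2 or scramble replicate 1 or 2 (0.0665 to 0.104), without a filter (0.0513), or with only the 2 lines and the block (0.0595). Of the 6 ETS factors 1 passed, *Etv1*, the third PEA3 family gene, which rose by 0.41 (adjusted p = 0.0159) in *ptgs1*-KO cells (4.65% of all genes were higher) and was lost without *ptgs1*-KO replicate 1 or 2 or scramble replicate 2 or 3 (0.0531 to 0.0661). None passed in the other knockouts.

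Of the 23 genes of the cascade itself, 2 were higher and 1 lower in *ptgs1*-KO than in scramble cells (4.65% and 4.61% of all genes tested), and 1 and 1 in *ptgs2*-KO cells (5.97% and 5.17%). For *ptges*-KO cells the numbers were 2 and 4 (11.9% and 14.4%). *Rps6ka2*, for an ERK-activated ribosomal S6 kinase, rose by 0.39 (adjusted p = 0.0234) in *ptgs1*-KO and fell by 0.60 (adjusted p = 0.000822) in *ptges*-KO cells, from a scramble mean of 21.7 RPKM to 28.8 and 14 RPKM, with 24.8 RPKM in *ptgs2*-KO cells. In *ptgs2*-KO cells *Nras*, for a Ras protein, rose by 0.34 (adjusted p = 0.0245) and *Mapk3*, for ERK1, fell by 0.30 (adjusted p = 0.0255). *Rps6ka2* in *ptgs1*-KO cells was lost without *ptgs1*-KO replicate 1 or scramble replicate 1 or 2 (adjusted p from 0.0751 to 0.0978). *Nras* was lost without *ptgs2*-KO replicate 1 or 2 or scramble replicate 1 or 2 (0.0587 to 0.101) or with only the 2 lines and the block (0.111), and *Mapk3* without *ptgs2*-KO replicate 1 or 3 or any 1 scramble sample (0.0647 to 0.0987) or with only the 2 lines and the block (0.115).

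Genes tested outside the list were ranked by the Pearson correlation of their log2(RPKM + 1) values with those of each listed gene over the 12 samples. These samples share 4 lines and 1 scaling per library, so the values only describe likeness. *Dusp6* was most like *Emilin1* (r = 0.974), *Akr1c14* (r = 0.972), and *Calhm2* (r = 0.968), and the mean of *Akr1c14* ran from 20.6 RPKM in *ptgs1*-KO to 7 RPKM in *ptges*-KO cells. *Emilin1* was near the level tested, with means of 1.61 RPKM in scramble, 0.730 RPKM in *ptgs2*-KO, and 0.317 RPKM in *ptges*-KO cells. It reached that level only through the *ptgs1*-KO samples, with a mean of 3.51 RPKM, so its rank was favored by the filter. *Dusp4* was most like *Cdk14* (r = 0.990), *Spred1* like *Crim1* (r = 0.988), *Spry4* like *Ap1b1* (r = 0.984), *Etv5* like *Tln1* (r = 0.983), *Spry2* like *Nedd9* (r = 0.981), and *Etv4* like *Arhgef3* (r = 0.928). *Phlda1* was most like *Stk39* (r = 0.957), *Fosl1* like *Trim44* (r = 0.967), and *Ccnd1* like *Zfp91* (r = 0.966).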

How the data were processed

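RNA from 12 samples was sequenced as 101 bp paired-end reads. The deposited values are RPKM to 2 decimals for 30705 gene names, made by the authors on mm10 per the labels; the aligner, counter, and annotation are not given in the sources used here, and the labels name both a TruSeq and a directional library kit. The values sum to 878504 to 903881 per sample, so another scaling to a fixed total cannot be told apart, and a gene that takes a large share lowers the others. Depth was estimated from the spacing of low values as 13.3 to 17.1 M reads per sample, least surely in *ptgs1*-KO replicate 1. Whole reads were not recovered, so no counting intervals were made.

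The 11282 genes whose mean reached 1 RPKM were tested on log2(RPKM + 1) with limma 3.58.1 (lmFit, eBayes with trend) in R 4.3.3, all 12 samples and 4 groups in the model, over 6 comparisons and by the moderated F test, with Benjamini-Hochberg adjustment over all genes tested and calls at an adjusted p under 0.05. The log2 scale with a pseudocount of 1 understates changes of low genes. The steps were tested on simulated data. Figures were drawn with matplotlib 3.10.9. Alternatives were a pseudocount of 0.1, no filter, a filter at a mean of 10 RPKM, median ratio scaling, quantile normalization, the replicate number as a block, only the 2 groups compared, eBayes without trend, and each sample left out. Scaling without the 20 highest genes and the block within only the 2 groups compared were added after seeing the data, giving 23 settings in all. The ETS core search was also added after seeing the data.

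Neither labels nor methods say that a replicate number marks a shared batch. Deviations from the group means correlated between same-numbered *ptgs2*-KO and *ptges*-KO samples with r of 0.112 to 0.566 (mean 0.311) over genes, so the block is given beside that comparison. Different-numbered samples of these lines had r of -0.475 to 0.321 (mean -0.149). In the other pairs of lines the mean r between same-numbered samples was between -0.234 and 0.129, and not every pair exceeded 0.1.

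Named were the 10 genes, the 3 targets, *Braf*, and *Cdkn2a*; in each of 5 wider lists (phosphatases, Sprouty and Spred relatives with *Errfi1*, ETS factors, other outputs, cascade) the 2 genes with the largest difference per knockout among those passing (1 gene of the cascade list is counted but not reported here); the most correlated gene (3 for *Dusp6*); and cell type markers. The members and lists were chosen with earlier results of these data known. *Hras* is listed under an older symbol. Promoters were taken from RefSeq on GRCm38.p6.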

Additional observations from a re-analysis of the deposited data

How the results depend on the processing

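Of the 10 genes, 9 passed the limma F test over the 4 groups in every setting that allows it except without *ptges*-KO replicate 2 or 3, where 8 did (8 to 9 with 1 sample left out; 3324 to 4606 of all genes, 4350 with all).

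With 1 sample left out, the 10 genes gave 1 to 4 calls for *ptgs1*-KO, 0 to 1 for *ptgs2*-KO, and 2 to 6 for *ptges*-KO against scramble cells, 5 to 8 for *ptgs2*-KO and 7 to 8 for *ptges*-KO against *ptgs1*-KO, and 0 to 4 for *ptges*-KO against *ptgs2*-KO cells. All genes gave, in the same order, 639 to 1161, 721 to 1552, 1945 to 3271, 1991 to 2835, 2302 to 3564, and 1107 to 2236 calls. The lows were 639 and 721 without scramble replicate 1, 1945 and 1107 without *ptges*-KO replicate 2; counts also moved by over 1.5 times without scramble replicate 2 (652 for *ptgs1*-KO, 769 for *ptgs2*-KO) or 3 (826 for *ptgs2*-KO), *ptgs2*-KO replicate 1 or 3 (812 and 799 for *ptgs2*-KO, 1201 without replicate 1 for *ptges*-KO against *ptgs2*-KO), and *ptges*-KO replicate 3 (1187, the same comparison). The wider lists gave 1 to 9, 4 to 9, and 12 to 21 calls for *ptgs1*-KO, *ptgs2*-KO, and *ptges*-KO with 1 sample left out, beside 9, 7, and 17. They gave 14, 9, and 24 with median ratio scaling, 11, 10, and 25 with quantile normalization, and 10, 8, and 21 without the 20 highest genes in the scaling.

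For *ptgs1*-KO against scramble cells, all genes gave 582 calls with a filter at 10 RPKM, where fewer genes were tested, and 1570 with quantile normalization, beside 1045. For *ptgs2*-KO they gave 1926 with median ratio scaling, 1791 with quantile normalization, 1365 with the replicate block, and 1511 without the 20 highest genes in the scaling, beside 1257, and the 10 genes gave 3 with the first and 2 with each of the others, beside 1. Comparing *ptges*-KO with *ptgs2*-KO cells, the 10 genes gave 7 with median ratio scaling (2499 of all genes), 6 with quantile normalization (2345), 1 each without a filter (1870) or without trend (1821), and 0 with only the 2 groups in the model (limma; 1487), beside 3 (1873). The causes were not tested.

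The replicate block gave 5 calls among the 10 genes for *ptges*-KO against *ptgs2*-KO cells, and 6 (3827 of all genes) with only these 2 groups. In every pair of lines the labels give the samples only a shared number. Of 12 samples, 5 correlated best with their own number. Against scramble cells, the block with only the 2 groups gave 2 of the 10 genes (1617 of all) for *ptges*-KO and 0 (303 of all) for *ptgs2*-KO cells. It gave 3 on the wider lists for *ptgs2*-KO cells.

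Scaling without the 20 highest genes moved the split of all genes toward lower ones in *ptges*-KO cells, to 1059 higher and 2363 lower against scramble (1342 and 1627 as deposited), 1209 and 2764 against *ptgs1*-KO (1494 and 1915), and 693 and 1752 against *ptgs2*-KO (763 and 1110), with all-gene medians of -0.09, -0.10, and -0.08. Other scalings moved it the other way, to 1895 and 1824 against scramble, 2073 and 2048 against *ptgs1*-KO, and 1240 and 1259 against *ptgs2*-KO with median ratio scaling, and 1870 and 1606, 1970 and 1791, and 1092 and 1253 with quantile normalization.

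Signs reversed only for differences that did not pass. These were *Ccnd1* in *ptges*-KO against *ptgs1*-KO cells (0.01; -0.20 with quantile normalization, -0.065 without the 20 highest genes, -0.043 to 0.070 with 1 sample left out), *Ptgs1* in *ptges*-KO against scramble (0.0042; -0.017, -0.064, and -0.090 to 0.070) and against *ptgs2*-KO cells (-0.15 to 0.012), *Ptgs2* in *ptges*-KO cells (-0.016; 0.0083 with median ratio scaling, -0.066 to 0.021), *Etv4* in *ptges*-KO (-0.17 to 0.0028), *Etv5* in *ptgs2*-KO (-0.033 to 0.12), and *Spry4* in *ptgs2*-KO cells (-0.13 to 0.013) against scramble, and *Spred1* in *ptges*-KO against *ptgs2*-KO cells (-0.20 to 0.0041), each with 1 sample left out.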
